A study of Drosophila melanogaster with 64 samples.

Results

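Heads of Drosophila melanogaster collected 24 h after a severe traumatic brain injury (TBI) were compared with heads collected 24 h after a sham procedure. The comparison used the 12 libraries labelled TBI or sham at 24 h, of 64 in the series. They come from 6 RNAs, 3 per group, since each RNA was made into a library on each of 2 library days. The counts of both libraries of an RNA were added, so that n is 3 against 3. All flies were males of the white mutant strain w1118, a standard laboratory background, reared at 25 C with 12 h of light on standard medium and injured at 3 d of age. Each RNA came from 20 whole heads, and the labels call the 3 RNAs of a group biological replicates. Uninjured 3 d old males of the same strain (controls, 3 RNAs) were prepared on both days too and are given as a reference. The series follows the injury from 1 h to 15 d.

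A fly head holds the brain and eyes together with cuticle, muscle, fat body and blood cells. Tissue damage in flies is known to activate the Jun kinase (JNK) cascade and its AP-1 transcription factors, and cytokines of the Unpaired family that signal through JAK/STAT to distant tissues such as the fat body. The fat body, the counterpart of liver and adipose tissue, answers with stress and immune peptides through the Toll, Imd and JAK/STAT pathways. In whole heads, fewer cells of a type and less RNA per cell cannot be told apart.

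The 6 RNAs held between 38.7 and 54.8 M gene counts, and single libraries between 19.3 and 33.9 M. Reads not aligned took 4.23% to 4.69% of all reads on day 1, except in sham replicate 1 (10.5%), and 11.2% to 11.9% on day 2. Genes of the mitochondrial genome took 6.30% to 13.1% of gene counts on day 1 and 13.9% to 17.3% on day 2. White, the gene disrupted in w1118, had 2 to 13 counts per library. Summed over 5 markers each, neurons stood at 5546 to 7290 CPM (read counts scaled to a common library total) in sham and 4528 to 5282 in TBI, fat body at 6072 to 9746 and 4483 to 6301, glia at 1502 to 1926 and 1303 to 1645, and hemocytes (blood cells) at 356 to 494 and 377 to 448. Photoreceptor markers summed to 35500 to 39290 and 28670 to 36320, muscle markers to 2206 to 2467 and 1981 to 2461, and gut markers to 200 to 367 and 232 to 369. The trypsin genes alphaTry and betaTry were at 0 in every RNA. Male reproductive markers summed to at most 0.40 CPM in sham and TBI and to at most 1.11 CPM in the controls. Oenocyte markers (4 matched) summed to 49.1 to 56.6 CPM in sham, 40.4 to 47.0 in TBI and 39.7 to 44.5 in the controls. Of all these markers Lsp2 (fat body) and Mhc (muscle) passed the test described next, and both were lower after TBI.

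At 24 h, 847 genes were higher after TBI than after sham and 400 were lower, of 10938 tested (11.4% called in either direction, 7.74% higher and 3.66% lower). The counts given below for gene lists are to be read against these shares. A gene is said to have risen or fallen where its p in edgeR's quasi-likelihood test, adjusted by the Benjamini-Hochberg method over all genes tested, was under 0.05, and changes are log2 fold changes ± standard error. Of the genes that rose, 301 did so by at least 2-fold, against 57 of those that fell, and the median change was 0.77 among genes that rose and -0.55 among genes that fell. The median of all genes tested was 0.00, and 49.5% of them were below 0. The 3 TBI and 3 sham RNAs did not overlap in 1244 of the 1247 called genes, where 37.6% of all genes tested did not overlap.

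How many genes passed depended on single RNAs, called TBI 1 to 3 and sham 1 to 3 below after their replicate numbers. The total was 769 without sham 1, 694 without sham 2, 620 without TBI 1 and 655 without TBI 3, against 1289 without sham 3 and 1142 without TBI 2. Whichever RNA was left out, 417 genes were called higher and 106 lower (4.78% of genes tested). Every gene named below as having risen or fallen is among these 523, unless the RNAs whose removal ended its call are given with it.

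**Figure D1:**
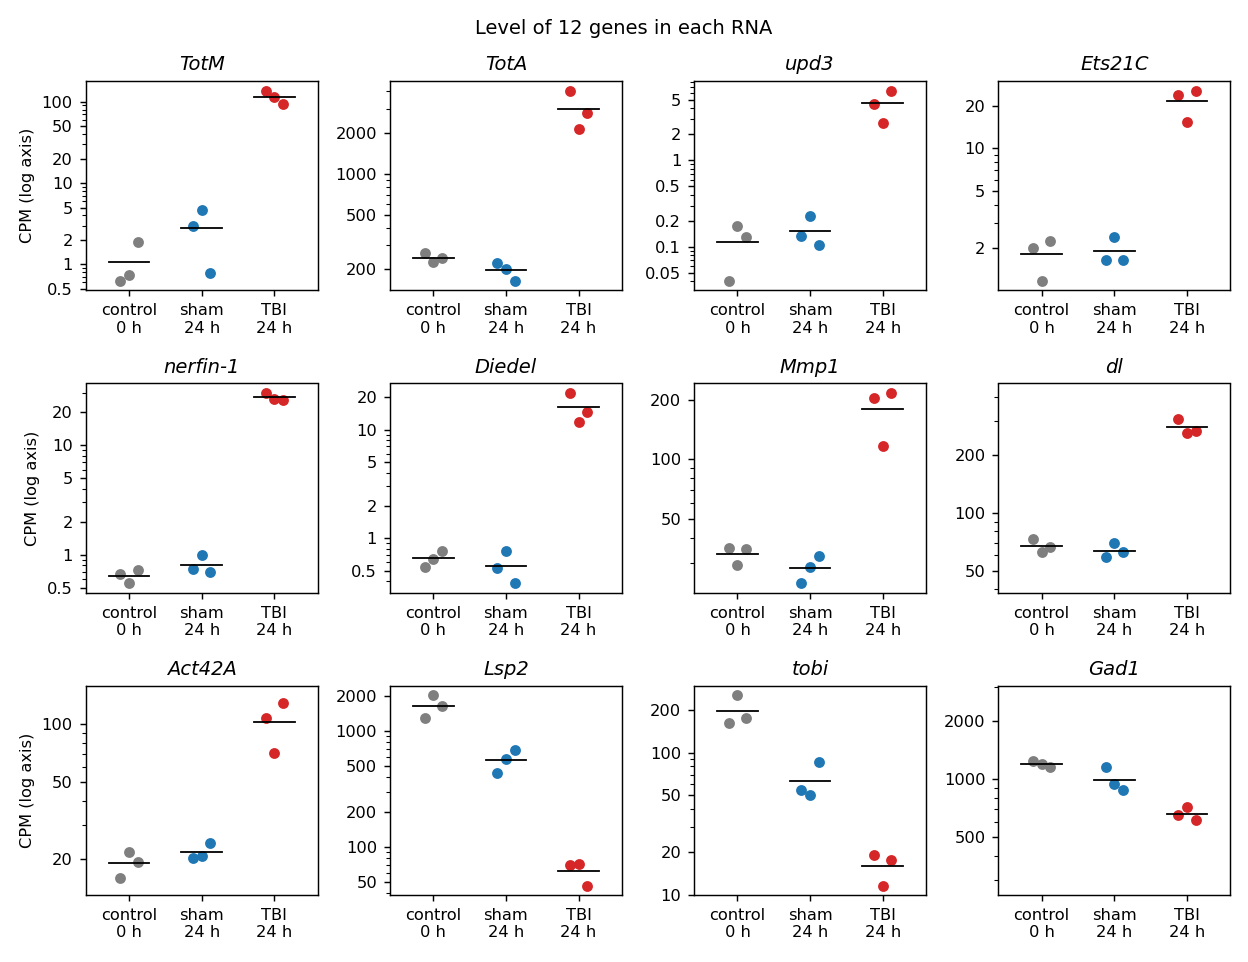
Level of 12 genes in each of the 9 RNAs, in CPM on a log axis; points are RNAs (control at 0 h, sham at 24 h, TBI at 24 h, 3 each), black lines the group means. TBI lies above sham without overlap in 9 of the 12 genes and below it in Lsp2, tobi and Gad1. Sham lies below the control without overlap in Lsp2 and tobi and, by a narrow margin, in Gad1 and TotA.

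Among the largest changes were those of Turandot genes, which encode small secreted stress proteins and are known JAK/STAT targets in the fat body. TotM (2L, 5329857 to 5330464, plus strand, build BDGP6.54) stood at 2.93, 4.73 and 0.785 CPM in sham and at 137, 115.2 and 93.9 CPM in TBI. The lowest TBI value was well above the highest sham value, and the gene rose by 5.38 ± 0.66 (edgeR adjusted p = 0.00338). TotA stood at 222, 199 and 163 CPM in sham and at 4062, 2119 and 2775 CPM in TBI, a rise of 3.94 ± 0.23. TotC, which lies beside TotA on 3R (20872988 to 20873580, plus strand), stood at 39.3, 30.4 and 18.1 CPM in sham and at 1684, 769 and 1083 CPM in TBI (5.33 ± 0.44). TBI 1 was the highest and TBI 2 the lowest for both, and control RNAs, at 226 to 261 CPM for TotA, were close to sham. All 5 Turandot genes tested rose, TotB by 4.46 ± 0.67 at levels of 0.327 to 1.16 CPM in TBI. TotX rose least (1.12 ± 0.25) and did not pass without TBI 3, sham 1 or sham 3. These genes are short and alike in sequence. Reads without a unique alignment were left out as unassigned, so the levels of such copies may be understated.

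Of 5 ligand and receptor genes of JAK/STAT signalling 4 could be tested, and 3 of these rose too. The remaining tested gene changed by 0.145 and did not pass. upd3 (X, 18277233 to 18284596, plus strand), the Unpaired cytokine best known from wounding, stood at 0.132, 0.225 and 0.105 CPM in sham and at 4.52, 2.68 and 6.39 CPM in TBI. It was close to absent in all sham RNAs and rose by 4.86 ± 0.44 (edgeR adjusted p = 4.68e-05). Its neighbour upd2 rose by 3.77 ± 0.45, from at most 0.238 CPM in sham to 1.80 to 2.83 CPM. The receptor gene dome stood at 33 to 33.9 CPM in sham and at 51.2 to 64.1 CPM in TBI (0.76 ± 0.11). Of the 10 genes of the JAK/STAT core and its feedback, Socs36E, a feedback inhibitor and target of the pathway, rose by 1.13 ± 0.11, from 35.6 to 44.8 CPM in sham to 74.5 to 92.8 CPM. The transcription factor gene zfh2 was the other called (-0.54 ± 0.16), and its call was lost without any 1 of the 6 RNAs. The median of these 10 was -0.08.

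Among 8 AP-1 and ETS transcription factor genes 3 rose (37.5%), and among 14 genes of the JNK cascade 2 did (14.3%). The share of all genes was 7.74%, and the median of the cascade was -0.05. Ets21C, an ETS factor downstream of JNK, stood at 1.64, 2.39 and 1.64 CPM in sham and at 23.9, 15.3 and 25.5 CPM in TBI (3.51 ± 0.27, edgeR adjusted p = 3.97e-05). Jra, the fly Jun, rose by 0.68 ± 0.12. kay, the fly Fos, rose by 0.47 ± 0.12, a call lost without TBI 1, TBI 3, sham 1 or sham 3. The JNK cascade genes that rose were puc, the phosphatase that limits JNK (0.79 ± 0.11), and Gadd45, a stress-responsive activator of the cascade (0.74 ± 0.15). Mmp1, a matrix metalloproteinase and known AP-1 target, stood at 23.6, 28.5 and 32.4 CPM in sham and at 204, 117 and 216 CPM in TBI. TBI 2 was the lowest of the injured RNAs for Ets21C and Mmp1 alike and still lay above every sham RNA, and Mmp1 rose by 2.67 ± 0.23. Timp, the metalloproteinase inhibitor, rose by 1.17 ± 0.13.

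Immune genes did not move as one group. Of 8 peptide genes of the drosomycin, defensin and related list 3 rose. Def (defensin) stood at 2.96, 1.6 and 1.8 CPM in sham and at 15.4, 27.8 and 19.7 CPM in TBI (3.33 ± 0.38), Listericin rose by 2.27 ± 0.35 and Drsl5 by 1.21 ± 0.23. Of the 7 attacin, diptericin and drosocin genes AttD alone rose (2.10 ± 0.41), at no more than 5.07 CPM. AttC stood at 534, 305 and 542 CPM in sham and at 316, 688 and 256 CPM in TBI, so the groups overlapped (-0.13 ± 1.00). Its sign turned without sham 3, TBI 1 or TBI 3 (0.00 to 0.12). The controls were spread as well, at 16.5, 345 and 83.9 CPM. Drs (drosomycin) did not pass either (1.24 ± 1.52), nor did DptA (0.31 ± 0.90) or Mtk (0.84 ± 0.82). None of the 4 cecropin genes passed, and all 4 were below 0; without sham 2, 1 of them fell. None of 13 Bomanin genes and Bombardier, targets of Toll that act against microbes, passed, although 12 were above 0 with a median of 0.78. With DESeq2 3 of them were higher, as were 3 on library day 1 alone. With RLE size factors 1 was, and 1 with sham 1 taken from its day 2 library only. None passed on library day 2 alone or with any 1 RNA left out.

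Upstream of these peptides, of 25 genes of Toll and Imd signalling 7 rose and none fell. dl (dorsal, 2L, 17436830 to 17450364, minus strand), an NF-kB factor of the Toll pathway, stood at 58.7, 69.3 and 62.9 CPM in sham and at 306, 259 and 267 CPM in TBI, where the spread within each group was far below the difference (2.12 ± 0.11, edgeR adjusted p = 5.88e-07). spz, the ligand of Toll, rose by 1.07 ± 0.16. The count of 7 depended on single RNAs: it was 3 without TBI 1, 2 without TBI 3, 2 without sham 1 and 3 without sham 2. PGRP-SA, a peptidoglycan receptor upstream of Toll, rose by 1.92 ± 0.21 and was the 1 called of 13 recognition protein genes. Among 13 complement-like and other immune effectors 4 rose. CG7763, which encodes a C-type lectin, stood at 0.211, 0.225 and 0.192 CPM in sham and at 5.59, 6.2 and 10.3 CPM in TBI (5.13 ± 0.33). Diedel, a secreted modulator of the Imd response, rose by 4.85 ± 0.29, from at most 0.757 CPM to 11.8 to 21.7 CPM, and lectin-24A, another C-type lectin, by 4.13 ± 0.50. The fourth, Mcr (0.49 ± 0.14), lost its call without TBI 1, TBI 3, sham 1 or sham 2.

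Of 20 genes of hemocytes and engulfment 2 were higher and 1 lower (10.0% and 5.0%, against 7.74% and 3.66% of all genes). NimC4, a phagocytic receptor also used by glia, rose by 2.49 ± 0.46 at 0.430 to 1.19 CPM in TBI. The GATA factor gene srp (-0.53 ± 0.14) lost its call without TBI 1, TBI 2, sham 2 or sham 3, and its cofactor ush (0.36 ± 0.11) without any 1 RNA. Of 13 melanization and wound repair genes 3 rose, the clotting gene fon, the serpin gene Spn27A and the protease gene Sp7 (0.77 to 0.95), and none was called without sham 1, sham 2 or TBI 3, 1 without TBI 1 and 4 without sham 3. Of 13 small heat-shock and Hsp90 chaperone genes l(2)efl rose (1.83 ± 0.26), and none of 6 Hsp70 and Hsp68 genes passed (median 0.84). Without sham 2 these lists counted 2 and 1. Sec61beta was the 1 called of 17 genes of endoplasmic reticulum stress (0.33 ± 0.10), a call kept only when sham 3 was left out.

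**Figure D2:**
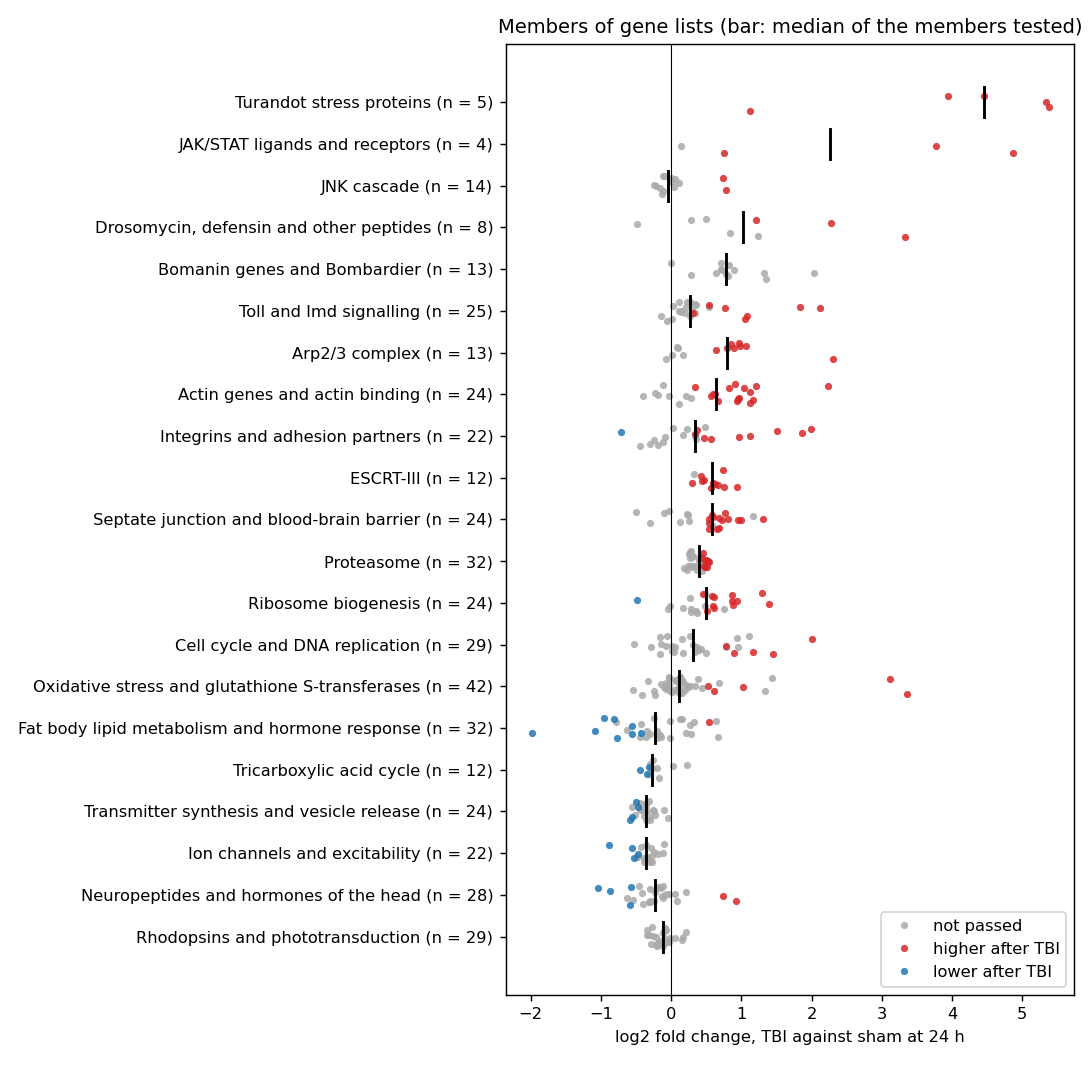
Change of each tested member of 21 gene lists (log2 fold change, TBI against sham at 24 h); red and blue points passed the test, grey points did not, and black bars are medians of the members tested. All members lie above 0 in the Turandot, ESCRT-III and proteasome lists and below 0 in the transmitter release and ion channel lists.

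Of 24 actin and actin-binding genes 16 rose and none fell (median 0.65), and 15 did so whichever RNA was left out. Act42A, a cytoplasmic actin gene, stood at 20.3, 20.6 and 24.2 CPM in sham and at 108, 71.0 and 128 CPM in TBI (2.24 ± 0.20). Act5C, the most abundant cytoplasmic actin gene of this list, rose from 728, 733 and 706 CPM to 1620, 1225 and 1875 CPM (1.12 ± 0.14), and tsr, the fly cofilin that severs filaments, by 1.17 ± 0.12. Of 13 genes of the Arp2/3 complex and its activators 8 rose with each RNA left out in turn. The 8 are all subunits of the complex that starts branched filaments: Arp2, Arp3, Arpc1, Arpc2, Arpc3A, Arpc3B, Arpc4 and Arpc5. They rose by 0.63 to 1.07, except Arpc3B, which went from 0.757 to 0.942 CPM in sham to 2.72 to 5.16 CPM in TBI (2.30 ± 0.27).

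Genes known from membrane repair and remodelling followed. Of 12 ESCRT-III genes, whose products bud and reseal membranes, 11 rose (median 0.58). CHMP2B stood at 7.60, 7.88 and 8.69 CPM in sham and at 14.8, 14.2 and 17.3 CPM in TBI (0.94 ± 0.16), and shrb, the core filament subunit, rose by 0.57 ± 0.09. The count was 7 without TBI 1 and 7 without TBI 3. The annexin gene AnxB9 rose from 127, 150 and 167.8 CPM to 494, 362 and 549 CPM (1.66 ± 0.15), AnxB11 by 1.30 ± 0.13 and AnxB10 by 0.55 ± 0.10. With CalpB, a calpain protease (0.49 ± 0.08), they made 4 of the 6 annexin and calpain genes tested. Of 30 tetraspanin genes 8 rose, 7 of them in the Tsp42E cluster on 2R by their symbols and led by Tsp42Ed (1.66 ± 0.15), and 2 fell, neither of them without TBI 1, TBI 3, sham 1 or sham 2 and 1 of them without TBI 2.

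Adhesion and barrier genes followed. Of 22 integrin and adhesion genes 9 rose, led by ItgaPS4 (1.99 ± 0.28) and Itgbn (1.86 ± 0.35), an alpha and a beta subunit, and by the laminin gene LanB2 (1.51 ± 0.24). The muscle attachment gene Zasp66 was the 1 that fell (-0.71 ± 0.12). Of 24 septate junction and blood-brain barrier genes 14 rose and none fell (median 0.58). Ssk, which builds the junction of gut epithelia, rose by 1.31 ± 0.22 and Lac, a junction protein of trachea and glia, by 0.99 ± 0.15, from 60.2, 75.4 and 80.6 CPM to 144, 112 and 173 CPM. The count was 9 without TBI 1, TBI 3 or sham 1. In the glial identity list 1 of 23 genes rose (moody, a receptor needed for the barrier, 0.60 ± 0.17) and 1 fell (Tret1-1, a trehalose transporter of the barrier glia, -0.44 ± 0.13), each call being lost without 4 of the 6 RNAs in turn, and the glial factor repo did not pass (0.15 ± 0.13). Removing TBI 1, TBI 3, sham 1 or sham 2 ended the call of moody, and removing TBI 1, TBI 2, sham 2 or sham 3 that of Tret1-1.

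nerfin-1 gave the smallest p of all genes. It encodes a zinc finger factor that keeps young neurons from reverting to a precursor state. The gene (3L, 909112 to 912319, plus strand) stood at 0.739, 1.00 and 0.698 CPM in sham, at 0.546 to 0.722 CPM in the controls and at 30.02, 26.5 and 26.2 CPM in TBI. The injured RNAs lay close together and far above all others, and the rise was 5.08 ± 0.16 (edgeR adjusted p = 5.58e-09). Of the other 25 genes of neuronal precursors and differentiation, insc, which orients precursor divisions, rose by 1.19 ± 0.21. The factors br (-0.50 ± 0.13) and scrt (-0.49 ± 0.13) fell, calls lost without TBI 1, TBI 3, sham 1 or sham 2.

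Genes of ribosome assembly, protein turnover and DNA replication were among those that rose. Of 24 ribosome biogenesis genes 12 rose, among them the nucleolar methyltransferase gene Fib (1.39 ± 0.17, from 5.94 to 7.05 CPM in sham to 12.6 to 19.7 CPM in TBI) and nop5 (1.29 ± 0.22), and Nop17l fell (-0.48, lost without TBI 1, TBI 3 or sham 2). The count of 12 was 5 without TBI 1 and 6 without TBI 3, sham 1 or sham 2. All 32 proteasome subunit genes were above 0 (median 0.40), also with RLE size factors or with the mitochondrial genome left out of the scaling, and 9 of them passed. That count was 1 without TBI 3, 2 without sham 1 or sham 2, 3 without TBI 1 and 12 without sham 3. The chaperonin genes CCT5 and CCT2 rose by 1.52 ± 0.18 and 1.08 ± 0.10. Of 29 cell cycle and DNA replication genes 5 rose. PCNA, the replication clamp, stood at 0.554, 0.900 and 1.27 CPM in sham and at 3.20, 2.58 and 5.37 CPM in TBI (2.00 ± 0.34), and RnrL, a subunit of ribonucleotide reductase, rose by 1.45 ± 0.19. That list counted 2 without TBI 3, sham 1 or sham 2, and 3 without TBI 1. Of 17 apoptosis and p53 genes 3 rose, among them the death gene rpr (0.97 ± 0.26, lost without TBI 1, TBI 3, sham 1 or sham 3), at 1.05 to 1.90 CPM in sham and 2.21 to 3.49 CPM in TBI. None of the 17 was called without TBI 1, TBI 3 or sham 1, and 1 was without sham 2.

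Of 7 larval serum storage and yolk protein genes 2 fell, and 3 of the 7 were above 0. Lsp2 (larval serum protein, 3L, 12129393 to 12131869, plus strand), an amino acid storage protein, stood at 432, 568 and 684 CPM in sham and at 69.9, 71.7 and 46.2 CPM in TBI. The controls were higher than both, at 1289, 2018 and 1629 CPM, and Lsp2 fell by 3.17 ± 0.24 against sham (edgeR adjusted p = 3.84e-05). Lsp1beta, another storage protein gene, went from 58.7 to 82.5 CPM to 6.58 to 15.1 CPM (-2.69 ± 0.41). Of 32 genes of fat body lipid metabolism and hormone response 8 fell and 1 rose (median -0.22). tobi, a glucosidase gene regulated by insulin and adipokinetic hormone, stood at 54.1, 49.9 and 85.6 CPM in sham and at 19.0, 11.5 and 17.4 CPM in TBI (-1.99 ± 0.27). AkhR, the receptor of adipokinetic hormone, fell by 0.82 ± 0.13, Glyp, glycogen phosphorylase, by 0.56 ± 0.10 and Treh, trehalase, by 0.56 ± 0.11. The lipase gene bmm rose (0.53 ± 0.13), a call lost without TBI 1, sham 1 or sham 3. The list had 5 genes lower without TBI 1, TBI 2 or sham 2, and 2 higher without TBI 3 or sham 2. The summed fat body markers, which include Lsp2, overlapped between TBI and sham through TBI 3 alone (6301 CPM, against 6072 CPM in sham 1). The part of these markers in the values was not tested. phu fell by 2.31 ± 0.34 and Gbs-70E, a glycogen-binding subunit of protein phosphatase, by 1.33 ± 0.22. Of 13 glycolysis genes Pfk, phosphofructokinase, fell by 0.50 ± 0.09. Of 12 genes of the tricarboxylic acid cycle kdn, Idh3g and Idh3b fell (0.31 to 0.44 below sham on the log2 scale), none of them without TBI 1, TBI 3, sham 1 or sham 2 and 1 of them without TBI 2. None of 34 nuclear genes of oxidative phosphorylation passed (median -0.09).

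Synaptic genes lay below 0 by small amounts. All 24 genes of transmitter synthesis and vesicle release were below 0 (median -0.36), where 49.5% of all genes were, and so were all 22 ion channel genes (median -0.36). With RLE size factors, or with the mitochondrial genome left out of the scaling, 24 and 22 were below 0 as well. Without sham 1, 23 of the transmitter genes were below 0. In each of these lists 4 genes fell (16.7% and 18.2%, against 3.66% of all genes). With DESeq2 11 fell in each list, and with RLE size factors 6 transmitter and 4 ion channel genes did. Gad1, which makes GABA, stood at 1155, 950 and 879 CPM in sham and at 654, 716 and 613 CPM in TBI, while the controls were at 1164 to 1242 CPM (-0.59 ± 0.12, edgeR adjusted p = 0.00899). Vmat, the vesicular transporter of monoamines, fell by 0.55 ± 0.11 and Tbh, which makes octopamine, by 0.50 ± 0.10. VGlut, the vesicular glutamate transporter, fell by 0.47 ± 0.12, a call kept only without sham 3. The list had 7 genes called without sham 3 and 3 without any other RNA. Among the ion channels Ork1, an open rectifier potassium channel, fell by 0.89 ± 0.12, and slo, NaCP60E and Ih by 0.47 to 0.56. The latter 3 lost their calls without TBI 1, TBI 3, sham 1 or sham 2, each of which left 1 channel gene called, while 9 were called without sham 3. The summed neuronal markers elav, nSyb, brp, Syt1 and fne were lower in all TBI RNAs than in any sham RNA (4528 to 5282 against 5546 to 7290 CPM), and none of the 5 passed (elav -0.27 ± 0.16). nSyb, brp and Syt1 are members of the transmitter list too. Their part in the values of the synaptic lists was not tested.

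Neuropeptide and sensory genes differed one by one. Of 28 neuropeptide and hormone genes 4 fell and 2 rose (14.3% and 7.14%, against 3.66% and 7.74% of all genes). Nplp3 fell from 481, 351 and 467 CPM to 196, 176 and 261 CPM (-1.04 ± 0.16) and Capa, a diuretic and pyrokinin precursor, by 0.88 ± 0.14. Proc, the proctolin precursor, rose from 101, 82.4 and 68.4 CPM to 187, 130 and 158 CPM (0.92 ± 0.15). The insulin-like peptide gene Ilp6 rose by 0.74 ± 0.21, a call kept only when TBI 2 was left out. The number that fell was 2 without TBI 3, sham 1 or sham 2, and 6 without sham 3. None of 29 phototransduction genes passed (median -0.12), ninaE among them (-0.22 ± 0.15). Hr38, an activity-regulated gene, stood at 26.4, 28.3 and 23.1 CPM in sham and at 29.6, 49.4 and 22.5 CPM in TBI, and did not pass (0.39 ± 0.58). Of 30 odorant-binding protein genes 7 rose and none fell, among them Obp99d (1.18 ± 0.24), Obp99b (1.10 ± 0.21) and Obp56a (1.14 ± 0.27, lost without TBI 1, TBI 2 or sham 1). That count was 4 without TBI 1, TBI 3, sham 1 or sham 2. For Obp99d the controls (9.61 to 13.2 CPM) overlapped TBI (9.24 to 15.1) and lay above sham (4.46 to 7.54). For Obp99b they (48.95 to 91.8 CPM) overlapped both sham (43.6 to 50.7) and TBI (88.5 to 124). Controls of Obp56a (3.70 to 5.91 CPM) overlapped sham (2.64 to 5.65) and lay below TBI (7.47 to 10.6).

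Of 42 genes of oxidative stress and glutathione transfer 5 rose (11.9%, against 7.74% of all genes). GstD1, the main glutathione S-transferase of its class, stood at 95.7, 123 and 127 CPM in sham and at 229, 203 and 275 CPM in TBI (1.03 ± 0.14). Its neighbours on 3R rose from below 1 CPM, GstD5 to 1.43 to 6.56 CPM (3.12 ± 0.68, lost without sham 1) and GstD6 to 0.358 to 0.777 CPM (3.36 ± 0.61). The list counted 8 without sham 3. Of 59 listed cytochrome P450 genes 3 rose and 3 fell (5.08% each, against 7.74% and 3.66% of all genes). The list leaves out Cyp304a1, a P450 gene that rose and is given below. Among the 6 were Cyp4e3 (1.64 ± 0.31, lost without sham 1) and Cyp18a1, which inactivates ecdysone (-1.10 ± 0.17). Of the 6 only Cyp18a1 passed whichever RNA was left out: 1 rose without TBI 1, TBI 3 or sham 2 and none without sham 1, while 1 fell without TBI 1 or sham 2 and 5 without sham 1. Of 37 cuticle protein genes 6 rose (16.2%, against 7.74% of all genes). Of these, 3 are neighbours on 2R: Cpr49Aa (2.83 ± 0.43), Cpr49Ab (2.23 ± 0.44) and Cpr49Ac (3.46 ± 0.60). The chitin deacetylase genes serp (1.47 ± 0.18) and verm (1.01 ± 0.14), which act in tracheal tubes, rose as the 2 called of 6 tracheal genes. Of 24 sarcomere genes 7 rose and 3 fell. Prm (paramyosin) stood at 144, 132 and 121 CPM in sham and at 293, 244 and 225 CPM in TBI (0.94 ± 0.11), whereas Mhc, the myosin heavy chain, fell from 834 to 950 CPM to 582 to 651 CPM (-0.53 ± 0.11). Without sham 2 the list had 4 genes higher, and it had 1 lower without TBI 1, TBI 3, sham 2 or sham 3. The amylase genes Amy-p and Amy-d rose by 2.69 ± 0.30 and 2.10 ± 0.24. They are near-identical copies. Reads without a unique alignment were left out as unassigned, so the levels of both may be understated, as may those of the GstD genes.

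4 genes with at most 3 counts over the 3 sham RNAs passed. CG18557 (2L, 2844601 to 2845734, minus strand) had 0, 1 and 0 counts in sham and 49, 61 and 79 in TBI. Scaled to library size, the ratio of the sums was 197, with a 95% interval of 34.9 to 7807 that covers counting error only. Mgat4b, named for an N-acetylglucosaminyltransferase, had 3 counts in all in sham and 68 in TBI (ratio of the sums 23.6, 7.74 to 117). The gustatory receptor gene Gr94a had 3 and 50 (17.3, 5.6 to 86.9), and the P450 gene Cyp304a1 2 and 37 (19.2, 4.97 to 165). In Cyp304a1 the controls, at 0.197 to 0.248 CPM, lay within the range of TBI (0.123 to 0.335) and above sham (at most 0.0409). In CG18557, Mgat4b and Gr94a the controls were at most 0.0808 CPM, below every TBI RNA. The sources used here do not say whether counting used the strand, so how reads of overlapping genes were assigned is not known. asRNA:CR45161 (-1.34 ± 0.29, lost without TBI 3 or sham 2) lies within the span of fln on the opposite strand (0.14 ± 0.52). In sham asRNA:CR45161 stood at 8.60 to 13.3 CPM and fln at 0.132 to 0.205 CPM, so the counts of this pair differed. Whether they shared reads was not tested.

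Each RNA had been made into a library on each of 2 days, which shows how far the injury effect depends on the preparation. All 1202 called genes that could be tested on day 1 alone had the same sign there, and so had all 1211 on day 2 alone. Since the same RNAs are in the sum, this is no independent test of the injury. Day 1 alone called 686 of the 1247 again and day 2 alone 605, and 439 genes (339 higher, 100 lower) were called on each day. A test of the effect on day 2 minus that on day 1, with the RNA as a block, called 0 of 10425 genes in edgeR's quasi-likelihood test (0.0%), and 622 had an unadjusted p under 0.05. Leaving out sham 1, 2 or 3 gave 1, 6 and 2 genes, leaving out a TBI replicate none, and keeping genes of low count 41.

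**Figure D3:**
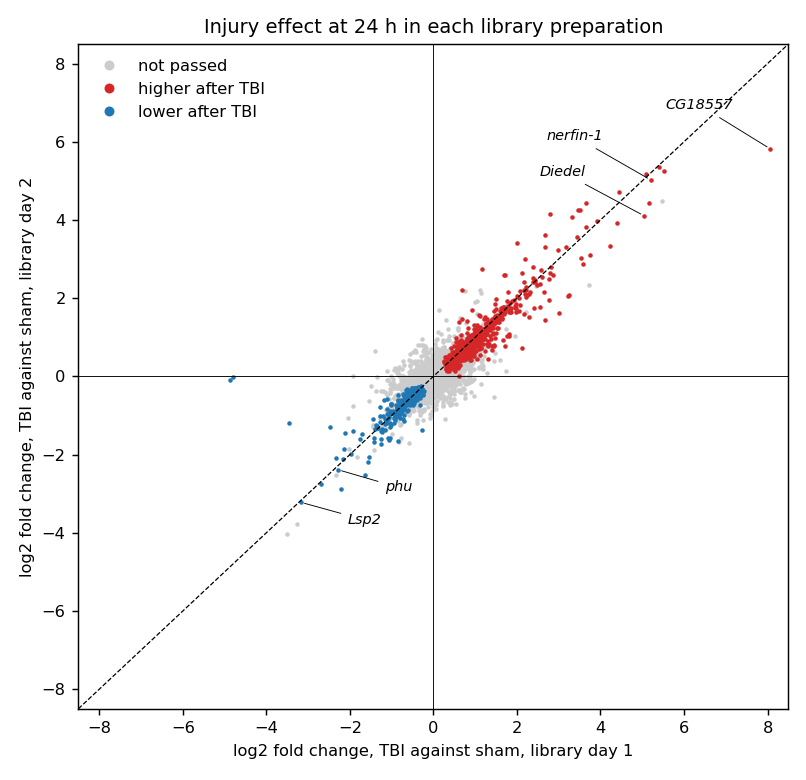
Log2 fold change of TBI against sham at 24 h with the libraries of day 1 alone (horizontal axis) and of day 2 alone (vertical axis); each point is a gene tested on both days, in red or blue where the summed counts passed, and the dashed line marks equal values. Called genes lie along the line in the upper right and lower left; the outlying pair of blue points near -4.8 on day 1 are tRNA genes of the mitochondrial genome.

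A pair of called genes, chosen after their values were seen, stood away from the others. mt:tRNA:Trp-TCA, a tRNA of the mitochondrial genome, was at 5.44, 3.98 and 1.53 CPM in sham and at 0.410, 0 and 0 CPM in TBI on day 1. On day 2 the same RNAs gave 0.397, 0.298 and 0.352 CPM in sham and 0.327, 0.382 and 0.286 CPM in TBI. mt:tRNA:Ala-TGC likewise had an effect of -4.79 on day 1 and of -0.01 on day 2, and its call in the sum was lost without TBI 1, TBI 2, TBI 3 or sham 2. The control libraries behaved like sham for the tRNA of tryptophan, at 2.72 to 5.41 CPM on day 1 and 0.527 to 0.676 CPM on day 2, whereas the sham libraries of 3 d, also from day 1, were at 0.138 CPM or less. The 15 genes of the list of mitochondrial genes had a median of -0.70 on day 1 and of -0.12 on day 2 and none passed in the sum. The share of mitochondrial counts differed between the days as given above, and its part in these values was not tested.

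Whether the effect at 24 h differed from that at 12 h was tested within library day 2, which held both. 7 of 10739 genes passed (0.0652%), 1 with a larger effect at 24 h (0.00931%) and 6 with a smaller one (0.0559%). In fits of all libraries of a day, the comparison of TBI with sham called 7.39% of genes for 1 h, 16.5% for 3 h, 12.1% for 6 h, 8.62% for 12 h and 8.4% for 24 h on day 2. On day 1 the 24 h comparison called 15.0%, that of 3 d 1.35%, that of 7 d 0.227%, that of 10 d 0.473% and that of 15 d 0.0379%. The 15 d groups held replicates 1 and 2 only, fewer RNAs than the other times, so their share is not on the same footing. CG44774 (X, 4926664 to 4938105, minus strand) rose late. Its effect was 0.61 at 12 h and 1.67 at 24 h on day 2, 1.80 at 24 h and 1.99 at 3 d on day 1, and the difference from 12 h was 1.06 ± 0.12 (edgeR adjusted p = 5.16e-05). At 24 h it stood at 35.9, 35.5 and 30.4 CPM in sham and at 117, 109 and 125 CPM in TBI. mesh, which encodes a septate junction protein of the gut, did the reverse: its effect was 3.81 at 3 h, 4.36 at 6 h and 4.04 at 12 h and 0.24 at 24 h, a difference of -3.81 ± 0.54. At 24 h it stood at 2.03, 7.28 and 2.11 CPM in sham and at 5.77, 4.09 and 3.78 CPM in TBI, and sham 2 lay above all TBI RNAs. Without sham 2 the effect of mesh at 24 h in the summed counts was 1.13 in place of 0.25 and passed (edgeR adjusted p = 0.0183), and without sham 1 or sham 3 it was -0.04 or -0.05. The difference from 12 h was then -3.20 without sham 2 and passed. Of the 7, CG44774 and mesh passed whichever of the 12 libraries of both times was left out. Leaving out 1 library gave 2 to 7 genes, 2 without TBI replicate 1 of 24 h, 3 without TBI replicate 3, sham replicate 1 or sham replicate 3 of 24 h or sham replicate 1 of 12 h, and 4 without TBI replicate 2 of 24 h or TBI replicate 2 or 3 of 12 h.

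3 of the 6 genes with a smaller effect at 24 h than at 12 h lie at a single place. asRNA:CR44205 (2R, 9766348 to 9767514, plus strand), asRNA:CR44207 (9775110 to 9776370, plus strand) and CG1698 (9793326 to 9798006, plus strand) all overlap the span of CG1688, which is on the minus strand (9766364 to 9806875). Their effects were 3.74, 5.44 and 3.02 at 12 h, and 0.33, -0.60 and 0.57 at 24 h on day 2. CG1688 itself was not among the 7 genes that passed against 12 h, and it did not pass at 24 h (-0.08 ± 0.09). Its effect at 12 h is not given here.

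The effect at 24 h was compared with that at 3 d within library day 1. 12 of 10567 genes passed (0.114%), 9 with a higher value at 24 h (0.0852%) and 3 with a lower one (0.0284%). b (black), a decarboxylase gene of the beta-alanine pathway known from cuticle tanning and from the glia of the eye, stood at 14.8, 19.1 and 18.5 CPM in sham at 24 h and at 80.7, 93.9 and 68.1 CPM in TBI. It rose by 2.21 ± 0.14 there, its effect on day 1 was 2.23 at 24 h and 0.07 at 3 d, and the difference was 2.16 ± 0.25 (edgeR adjusted p = 4.24e-05). It passed whichever of the 12 libraries was left out, which none of the other 11 did. Diedel had an effect of 5.03 at 24 h and 0.50 at 3 d on day 1 (difference 4.52 ± 0.84), and dl of 2.06 and 1.25 (0.81 ± 0.16). nerfin-1 did not pass this test: its effect on day 1 was 5.19 at 24 h and 5.67 at 3 d. The number that passed was 1 without TBI replicate 1, TBI replicate 3 or sham replicate 1 of 24 h or sham replicate 3 of 3 d, 2 without sham replicate 2 of either time, 3 and 5 without TBI replicate 1 and 3 of 3 d, 25 without sham replicate 3 of 24 h, 27 without sham replicate 1 of 3 d and 58 without TBI replicate 2 of 24 h.

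**Figure D4:**
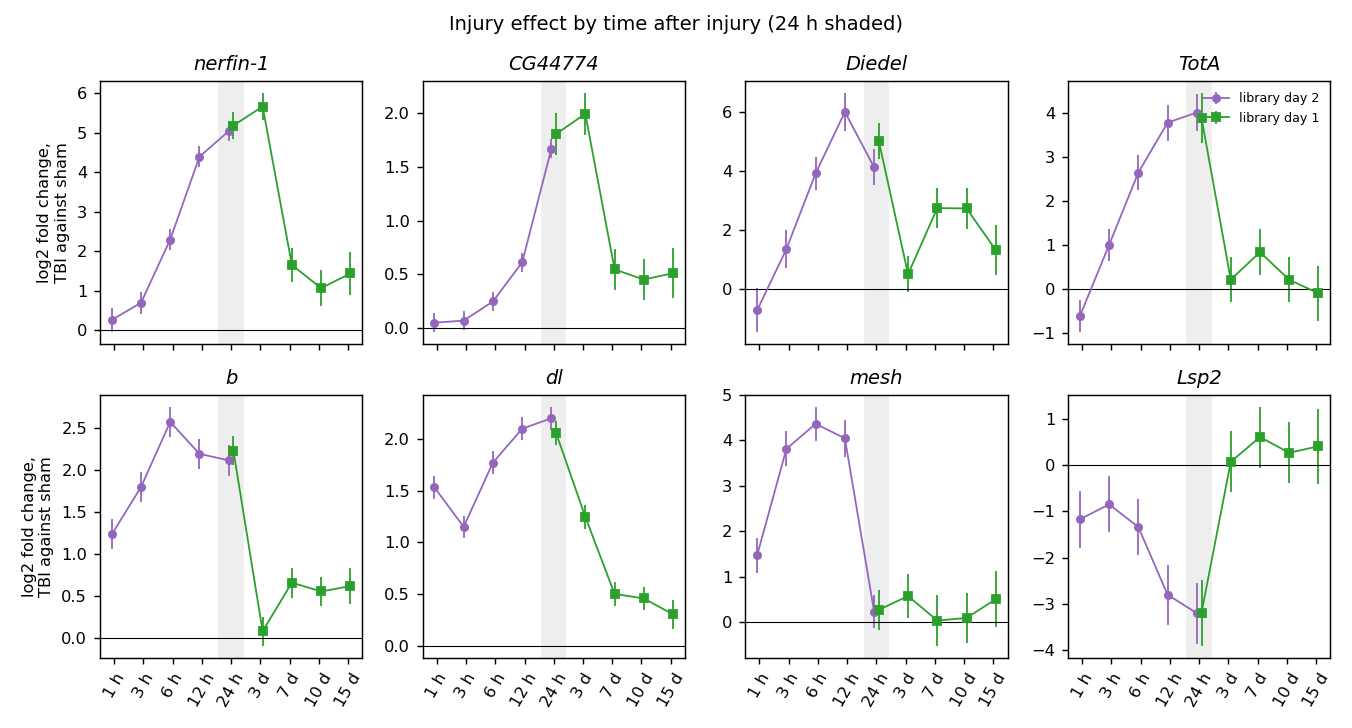
Log2 fold change of TBI against sham (vertical axes) ± standard error at each time after injury for 8 genes; circles are libraries of day 2 (1 to 24 h), squares libraries of day 1 (24 h to 15 d), and 24 h, measured on both days, is shaded. CG44774 rises to 24 h and is still near 2 at 3 d, b is near 0 at 3 d, and mesh falls from 4.04 at 12 h to 0.24 at 24 h. The 15 d groups held replicates 1 and 2 only.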

How the data were processed

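RNA of whole heads was sequenced as stranded, polyA-selected libraries, per the labels' protocols. The authors deposited raw read counts per gene in 1 table of 17481 genes and 5 categories of unassigned reads, which were left out of the tests. FastQC, MultiQC, HISAT2, Picard, HTSeq and DESeq2 are named in the submitters' processing notes, without versions; no genome build or strand setting is given in these sources. Positions and symbols come from BDGP6.54, which matched 17343 of the gene IDs.

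Counts of the day 1 and day 2 libraries of each RNA were added. edgeR 4.0.16 in R 4.3.3 (robust quasi-likelihood, TMM factors, low-count genes removed by its default filter) was fitted to the 9 RNAs of sham and TBI at 24 h and controls, with 6 residual degrees of freedom, and p-values were adjusted by the Benjamini-Hochberg method over all genes tested, with a threshold of 0.05. Differences between times used all libraries of 1 library day, and the difference between library days used the RNA as a block. CPM are counts scaled to library size and TMM factor. Library totals limit precision, and the intervals given cover counting error only. Scripts were tested on simulated counts. DESeq2 1.42.0, limma 3.58.1 and the other alternatives are given in the closing part.

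The comparison and the 57 gene lists were chosen with earlier results of these data known. Genes were named by rule: the 15 largest rises and falls among called genes of at least 2 CPM without overlap, up to 4 called members per list by size, followed marker genes, and called genes with at most 3 sham counts. Other list members are named to complete a group or because a limit touches them, with their values known. The results give those of the genes named by rule that belong to the groups described.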

Additional observations from a re-analysis of the deposited data

Results flagged for a closer look

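For 19 genes the injury effect at 24 h differed from that at a neighbouring time in a test of the difference itself (edgeR, Benjamini-Hochberg adjusted). Against 12 h the log2 difference was 1.06 for CG44774, -3.81 for mesh, -6.04 for asRNA:CR44207, -3.41 for asRNA:CR44205, -1.55 for CG34034, -2.45 for CG1698 and -1.98 for CG9192. CG34034 lost its call without any 1 of the 12 libraries of both times, and asRNA:CR44205 and CG9192 kept theirs in 2 of the 12 cases.

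Against 3 d the log2 difference was 2.16 for b, -1.94 for CG42249, 1.01 for CCT5, 4.52 for Diedel, -1.04 for LUBEL, 0.72 for CCT2, 1.41 for CG3097, -1.21 for Zasp66, 0.81 for dl, 0.69 for Nlp, 1.35 for dUTPase and 0.85 for Timp. CG42249 and Zasp66 were below 0 at 24 h on day 1 (-0.80 and -0.76) and above 0 at 3 d (1.14 and 0.44).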

How the results depend on the processing

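The counts of 847 genes higher and 400 lower became 1007 and 759 with DESeq2, 1049 and 603 with limma voom on single libraries, 520 and 217 on day 1 alone, 461 and 180 on day 2 alone, 804 and 783 in the fit of all day 1 libraries, and 666 and 236 in that of all day 2 libraries. Leaving out 1 RNA gave 484 to 874 higher and 136 to 415 lower. The replicate block gave 1715 and 1410, and 1 gene against 12 h and 166 against 3 d. None of the 7 genes called against 12 h passed with it (edgeR adjusted p 0.114 to 0.427). The series text calls sham and TBI animals paired but ties no replicate number to a pair. Deviations of same-numbered RNAs from their group means correlated at 0.16, 0.086 and 0.39. For each sham RNA this was its best match, and the other pairings gave -0.30 to 0.15. TBI replicate 2 correlated better with sham replicate 1 (0.15), and the numbers were not taken as pairs. With the 6 RNAs of 24 h alone, the block lowered edgeR's coefficient of variation between replicates from 0.133 to 0.0973. Whether equal numbers mark pairs is not known. Keeping genes of low count gave 41 genes for the difference between days and 2 against 12 h. Leaving out 1 RNA or library gave 0 to 6 between days, 2 to 7 against 12 h and 1 to 58 against 3 d. The cause of these changes was not tested.

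With RLE size factors the counts were 819 and 432, with no filter 779 and 398, with the mitochondrial genome left out of the scaling 843 and 400, and with the 6 RNAs of 24 h alone 1030 and 538. After seeing the data, sham replicate 1 was taken from day 2 only, since its day 1 library had the most unaligned reads of the 24 h libraries of that day (728 and 335), and TBI replicate 1 from day 1 only (809 and 348). Of 3835 values of named genes, 478 lost their call, and 1 of a called gene changed sign, mt:tRNA:Ala-TGC in the fit of all day 2 libraries (0.022). AttC, CG1688, CG7300 and mesh, which did not pass, changed sign under some alternatives. With 3 RNAs per group, genes near 0 CPM are the least certain.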
